A study of Mus musculus with 23 samples.

Results

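The genes described here are the histone cluster genes of the mouse, taken as every probe of the expression array whose gene name in the scanner files begins with Hist1h, Hist2h, Hist3h or Hist4h. There were 51 such probes for 47 genes, among 39429 probes for 31829 gene names on the array. The rule used names and no measured value. Expression was measured in the whole brains of 12 adult male C57BL/6J progenies, with 1 one-colour Agilent array per mouse and 4 mice for each maternal diet. All embryos came from in vitro fertilization with C57BL/6J eggs and sperm of parents on a normal diet, were carried by ICR recipient mothers, and were nursed by ICR foster mothers. Recipients of the CD group ate a control diet, those of the PR group a protein-restricted diet, and those of the FA group the protein-restricted diet with supplemental folic acid. The diet of the foster mothers is given in more than one way in the study's text. All progenies ate the control diet after weaning. The labels do not say which mice were littermates.

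Histones are the proteins around which DNA is wound. H2A, H2B, H3 and H4 form the nucleosome core, and the linker histone H1 binds the DNA where it enters and leaves. Most of their genes lie in clusters, have no introns and are transcribed mainly during S phase, when new DNA has to be packaged. Their mRNAs typically end in a short stem-loop that is bound by the protein SLBP, in place of a poly(A) tail. Some cluster genes also give polyadenylated mRNAs, which are found in cells that no longer divide, as most cells of the adult brain do not. The kit that labelled these samples copies RNA from a poly(A) tail, so the array reads mainly polyadenylated RNA.

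All 4 arrays of a diet were on 1 slide, and each diet had a slide of its own, so slide and diet cannot be told apart. Spots well above the local background, a flag set by the scanner software, numbered 27068 to 28458 on the CD arrays, 31266 to 33478 on the PR arrays and 30408 to 31672 on the FA arrays. The net signal of negative control spots was 28.1 to 34.8 in CD, 42.7 to 51.2 in PR and 39.3 to 47.6 in FA. For dim probes, the flag could differ between groups at similar normalized values. Every probe of the neuron, astrocyte and oligodendrocyte marker lists (5, 7 and 6 probes) was well above background on each of the 12 arrays. Of the 9 pituitary probes, 2 differed between groups: growth hormone (Gh) averaged 7.94 ± 0.29 on the log2 scale (SD, n = 4) in CD, 2.61 ± 0.42 in PR and 3.32 ± 1.9 in FA, and prolactin (Prl) 7.9 ± 0.06, 3.35 ± 0.58 and 3.66 ± 2.47. The summed intensity of the pituitary list ranged from 17679 to 23104 in CD, from 13919 to 25283 in PR and from 16189 to 18834 in FA. Its part in the results that follow was not tested. In whole brain, fewer cells of a type and less RNA per cell cannot be told apart.

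The probes themselves show what part of each transcript was read. They are printed here because histone genes of a type are nearly identical, and because the position of a probe decides whether it meets the stem-loop. Of the 15 H2A probes, 7 lay at the end of the coding sequence and shared a run of 29 to 42 bases with another of the 7. Each is printed 5′ to 3′ as the scanner files give it, with the longest run shared with another probe of the set in capitals.
Hist1h2af: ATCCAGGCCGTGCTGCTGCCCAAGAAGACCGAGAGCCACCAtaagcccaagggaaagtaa
Hist1h2ag: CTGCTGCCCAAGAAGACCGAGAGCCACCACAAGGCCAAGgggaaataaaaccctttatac
Hist1h2ah: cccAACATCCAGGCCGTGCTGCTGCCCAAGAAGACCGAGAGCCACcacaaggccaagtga
Hist1h2ak: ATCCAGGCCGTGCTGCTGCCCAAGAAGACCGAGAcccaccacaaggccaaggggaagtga
Hist1h2an: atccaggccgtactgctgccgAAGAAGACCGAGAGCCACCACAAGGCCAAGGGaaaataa
Hist2h2aa2: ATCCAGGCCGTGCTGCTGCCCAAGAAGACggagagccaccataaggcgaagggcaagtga
Hist2h2ac: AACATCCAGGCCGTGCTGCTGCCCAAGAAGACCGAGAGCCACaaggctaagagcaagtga
These probes can bind mRNA of one another's genes, so that the 7 values are not 7 independent genes. The Hist1h2ah and Hist1h2an probes are listed with 4 RefSeq transcripts, Hist1h2ak with 3, Hist1h2af and Hist2h2aa2 with 2, and Hist1h2ag and Hist2h2ac with 1. The files place them in the mm9 build at chr13:23626113-23626172 on the plus strand for Hist1h2af and chr13:21878695-21878754 on the minus strand for Hist1h2an, and, on the plus strand, at chr3:96049834-96049896 for Hist2h2ac and at chr3:96049837-96049896 for Hist2h2aa2, which is nearly the same place. The array also holds 2 probes of other genes that share at least 30 bases with a member, H2afj (A_52_P407692) and RP23-480B19.10.

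The stem-loop was read by 5 members. The letters GGCTCTNNNNAGAGCC, searched as printed on the probe strand, were found in 5 of all 39429 probes, and all 5 belonged to histone cluster genes. For each, 30 bases around the stem-loop are printed, with the stem-loop in capitals.
Hist1h3a: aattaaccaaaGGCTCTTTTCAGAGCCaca
Hist1h3g: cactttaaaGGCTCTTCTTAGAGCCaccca
Hist1h3i: ataacaaaaGGCTCTTTTCAGAGCCccctc
Hist2h2aa1: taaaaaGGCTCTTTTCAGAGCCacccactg
Hist2h2bb: acccaaaaGGCTCTTTTCAGAGCCacttta
Hist1h3a, Hist1h3g and Hist1h3i were well above background on 2, 3 and 5 of 12 arrays, and Hist2h2aa1 and Hist2h2bb on all 12. The hexamer AATAAA, the usual signal for adding a poly(A) tail, was found in 4965 probes of the array (12.6%) and in 2 members. In Hist1h2ag it spans the stop codon. In Hist3h2ba, at chr11:58762964-58763023 on the plus strand, it lies downstream in the transcript, shown in capitals within 30 bases of the probe.
Hist3h2ba: gttcataatggtattAATAAAtttggttca

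Of the 51 probes, 37 were well above background on all 12 arrays, 12 on 1 to 11 arrays, and 2, Hist1h1d and Hist1h2bp, on none. Over the whole array, 60.2% of probes were well above background on all arrays and 17.5% on none. By type, all 12 arrays detected 3 of 6 H1 probes, 13 of 15 H2A probes, 7 of 11 H2B probes, 4 of 8 H3 probes and 10 of 11 H4 probes. H2A and H4 were thus detected most completely, and H1 and H3 least.

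Histone cluster probes were more often lower than higher in both groups on a restricted maternal diet. In PR, 14 of 51 probes (27.5%) were lower than in CD at an adjusted p under 0.05, against 16.6% of all probes tested, and 2 (3.92%) were higher, against 13.4%. In FA, 13 (25.5%) were lower than in CD, against 18% of all probes, and 4 (7.84%) were higher, against 16.4%. The median log2 difference over the 51 probes was -0.22 for PR minus CD and -0.19 for FA minus CD, beside -0.02 and -0.01 over all probes. The difference was below 0 for 41 and 39 of the 51 probes. PR and FA were set against the same CD arrays, so these are not separate observations of a direction. Of the lower calls, 7 in each comparison were in the 7 H2A probes printed above, which can bind mRNA of one another's genes. The excess of lower calls over the share of all probes lay in that set. By type, the probes lower in PR were 2 of H1, 7 of H2A, 1 of H2B and 4 of H4, with none of H3, and those lower in FA were 2 of H1, 8 of H2A, 2 of H2B and 1 of H4, again with none of H3.

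**Figure D1:**
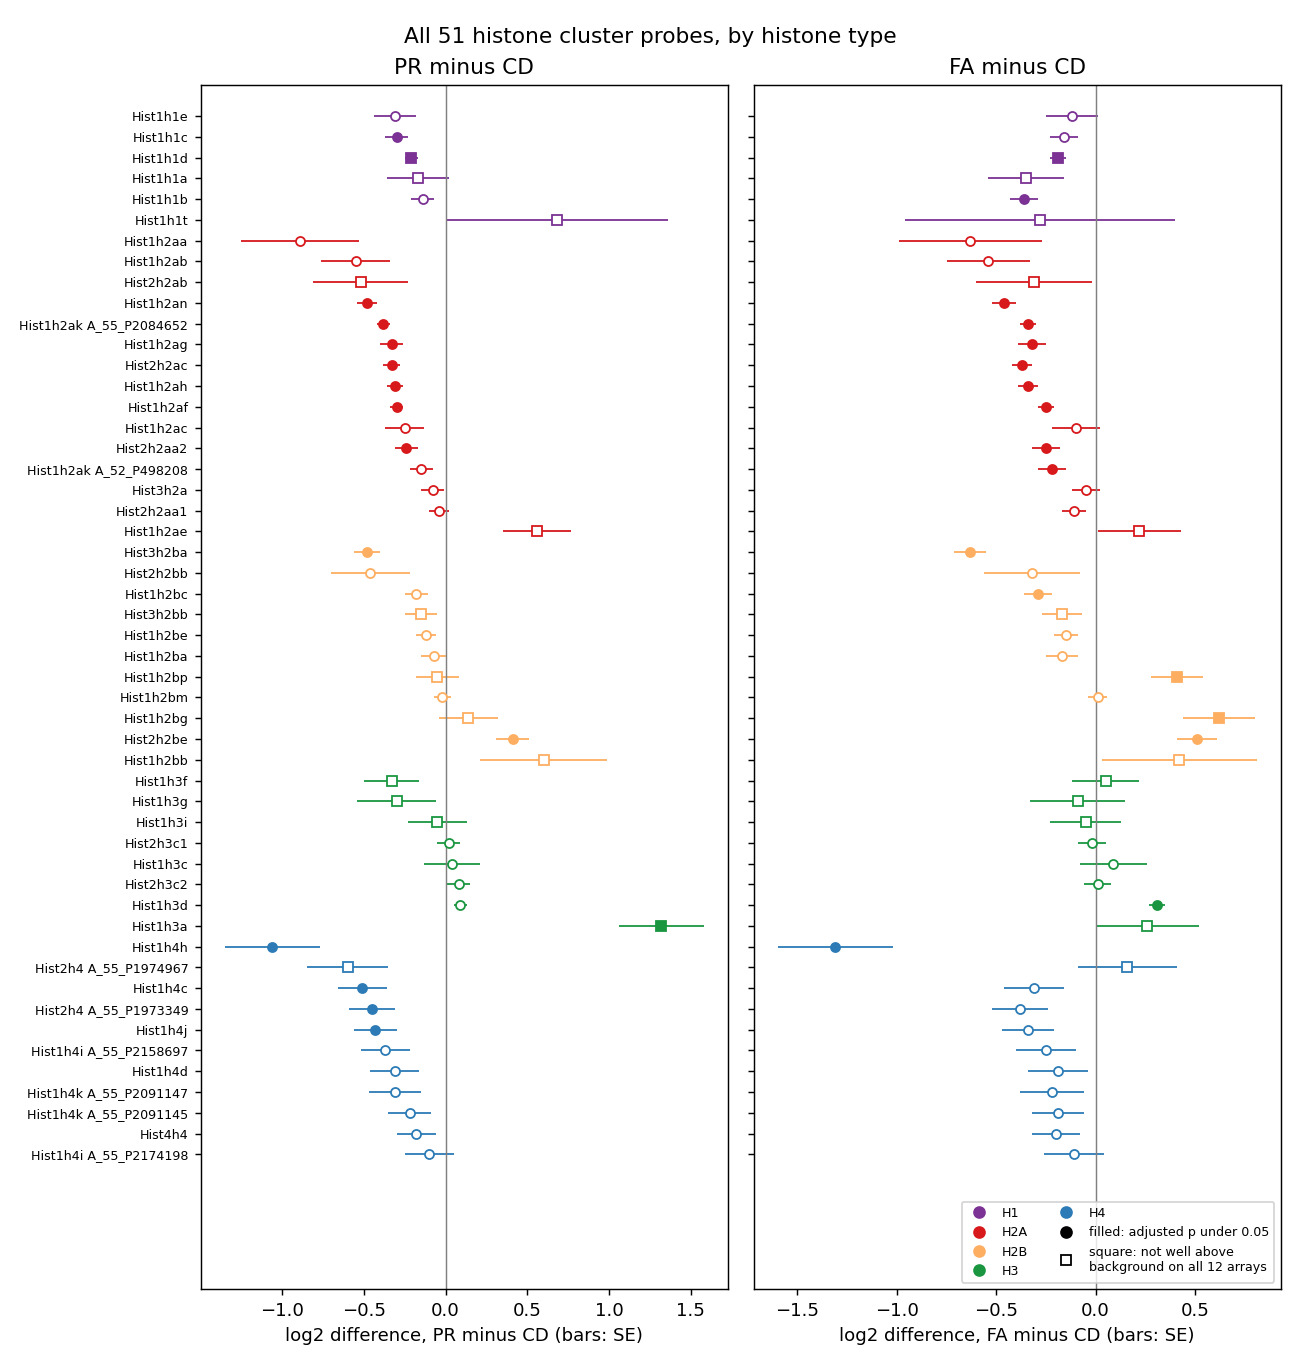
Log2 difference from CD of each of the 51 histone cluster probes in PR (left) and FA (right), grouped by histone type; bars are standard errors, filled symbols passed an adjusted p under 0.05, and squares were not well above background on all 12 arrays. All 7 H2A probes at the end of the coding sequence lie between -0.24 and -0.48 in PR, while H3 probes lie on both sides of 0.

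H2A, the core histone with the most probes, gave the most calls, and 7 of them in each comparison were in the probes printed above. Hist1h2an measured 13.32, 13.44, 13.29 and 13.42 on the CD arrays, 13.03, 12.92, 12.82 and 12.8 on the PR arrays, and 12.9, 12.92, 12.94 and 12.89 on the FA arrays. Every CD array lay above every PR and FA array. The log2 difference was -0.48 ± 0.06 in PR (SE, adjusted p = 0.000229 by limma, n = 4 mice a group) and -0.46 ± 0.06 in FA (adjusted p = 0.00024), a level 1.39 and 1.37 times lower.

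Hist1h2ak (A_55_P2084652) measured 14.25, 14.28, 14.18 and 14.34 in CD, 13.9, 13.9, 13.87 and 13.84 in PR, and 13.92, 13.95, 13.9 and 13.92 in FA. Groups again did not overlap with CD, and the difference was -0.38 ± 0.04 in PR (adjusted p = 0.000125) and -0.34 ± 0.04 in FA (adjusted p = 0.000217). Hist1h2af measured 14.46, 14.51, 14.46 and 14.46 in CD against 14.08 to 14.23 in PR and 14.19 to 14.26 in FA. Its CD arrays agreed within an SD of 0.02.

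The other 4 were also lower in both groups. Hist1h2ah measured 14.57 to 14.74 in CD, 14.25 to 14.41 in PR and 14.23 to 14.34 in FA. Hist2h2ac measured 14.27 to 14.43, 13.97 to 14.09 and 13.91 to 14.08. Hist1h2ag measured 13.29 to 13.56, 12.99 to 13.17 and 13.02 to 13.16. The groups did not overlap with CD for these 3, and the share of all probes without overlap is not given here. Hist2h2aa2 was the exception, with CD values of 14.63, 14.62, 14.32 and 14.5 that reached into the PR range of 14.21 to 14.32 and the FA range of 14.2 to 14.36. Over the 7 probes the fall was 1.18 to 1.39 times in PR (adjusted p 0.000125 to 0.0272) and 1.19 to 1.37 times in FA (adjusted p 0.000217 to 0.0189). Hist2h2aa2 lost its call in PR with 2 groups only (adjusted p = 0.0581) and the Tukey test (0.0726), and in FA with the Tukey test (0.0516). It also lost it in PR without CD replicate 1 (adjusted p = 0.072), CD replicate 2 (0.0716), PR replicate 3 (0.0518) or PR replicate 4 (0.0737), and in FA without CD replicate 1 (0.0522), CD replicate 2 (0.0523) or FA replicate 4 (0.0521). FA minus PR lay between -0.04 and 0.05 for the 7, and none passed the test.

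**Figure D2:**
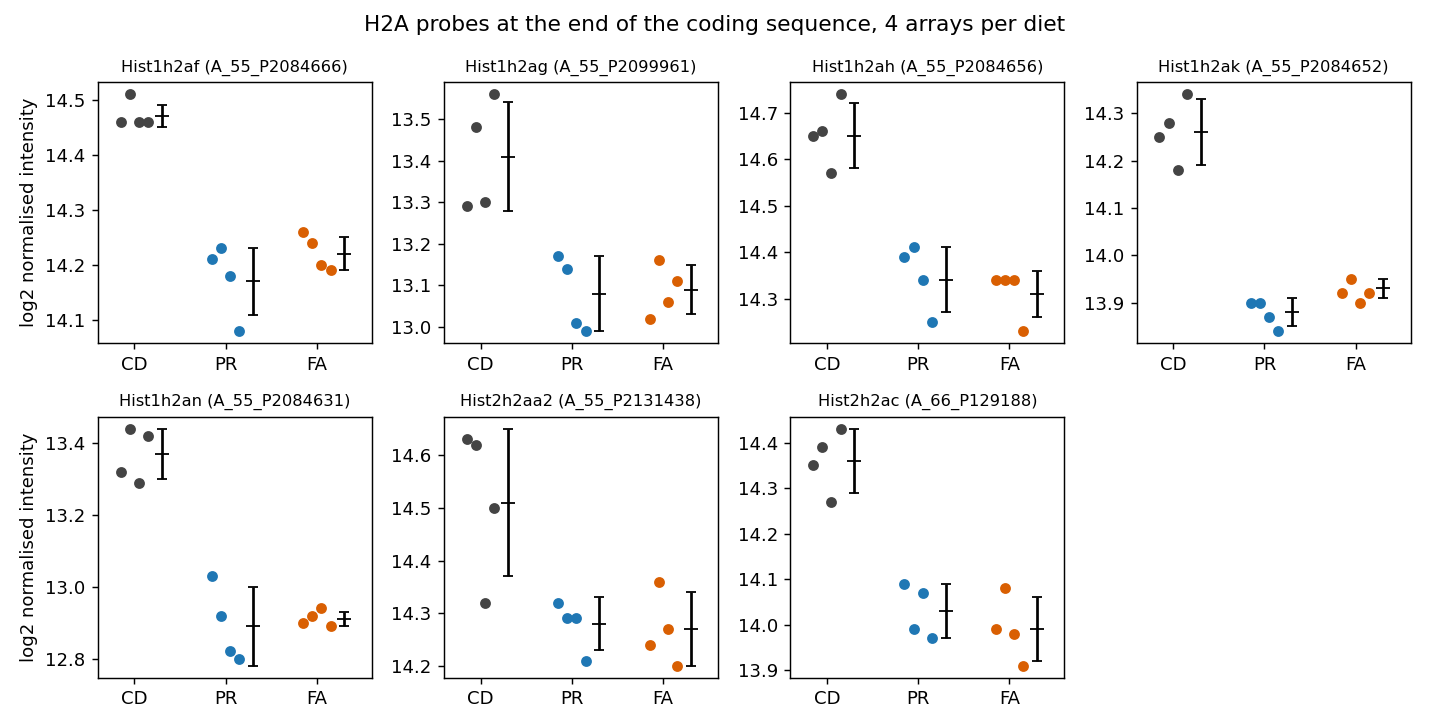
Log2 normalised intensity of the 7 H2A probes at the end of the coding sequence on each of the 4 arrays of CD, PR and FA; points are arrays and black bars the mean and SD of a group. In all panels but that of Hist2h2aa2 the CD points lie above all PR and FA points, by a mean of 0.3 to 0.48 in PR.

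The H2afj probe that shares bases with this set, for a replication-independent H2A gene outside the clusters, measured 14.86, 14.84, 14.82 and 14.87 in CD, 14.67, 14.65, 14.62 and 14.59 in PR, and 14.64, 14.69, 14.65 and 14.11 in FA. Its difference was -0.22 ± 0.11 in PR (adjusted p = 0.159) and -0.33 ± 0.11 in FA (adjusted p = 0.04). The other probe of H2afj (A_55_P2099540) had a mean of 10.52 in CD, 10.54 in PR and 10.53 in FA. The 2 probes of H2afj thus disagreed.

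Probe composition moved with the same comparisons. The 7 H2A probes are 51.7% to 61.7% G and C, whereas 39120 probes outside the histone clusters are at or below 55%, 103 lie over 55% to 60% and 155 are over 60%. Hist1h2ah and Hist1h2ak (A_55_P2084652) are over 60%. Hist1h2af, Hist2h2ac and Hist2h2aa2 lie over 55% to 60%, and Hist1h2ag and Hist1h2an at or below 55%. Of the 155 outside probes over 60%, 34.8% were lower in PR and 33.5% in FA, with median log2 differences of -0.26 and -0.25. Of the 103 over 55% to 60%, 23.3% were lower in PR and 29.1% in FA, with a median of -0.19 in each. Of the 39120 outside probes up to 55%, 16.5% and 17.9% were lower, with medians of -0.01 and 0. Among histone cluster probes up to 55%, 7 of 38 (18.4%) were lower in each comparison and the medians were -0.16 and -0.14. When each array was centred within classes of probe GC content, an alternative chosen after seeing the data, 5 of the 7 H2A probes were still lower in PR and 4 in FA, and their median difference went from -0.33 to -0.21 and from -0.34 to -0.15. Hist1h2ah and Hist2h2aa2 lost the call in PR (adjusted p = 0.219 and 0.16), and Hist1h2af, Hist1h2ah and Hist2h2aa2 in FA (0.0642, 0.0502 and 0.165). Hist1h2an, which is 55% G and C, kept a difference of -0.52 and -0.51.

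**Figure D3:**
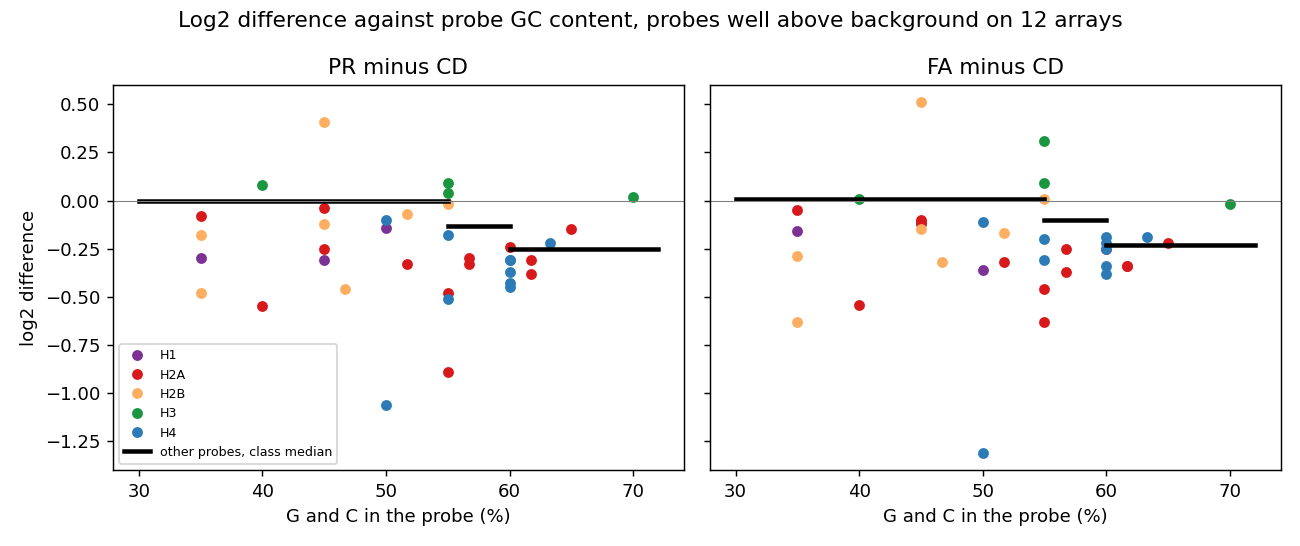
Log2 difference from CD against the share of G and C in the probe, for the 37 histone cluster probes well above background on all 12 arrays, in PR (left) and FA (right); points are probes coloured by histone type, and black lines the median of all other such probes in 3 classes of GC content. The black line falls to -0.25 in PR and -0.23 in FA above 60%.

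The other H2A probes gave 1 call. A second Hist1h2ak probe (A_52_P498208), which starts at the first base of the listed transcript, was lower in FA by 0.22 ± 0.07 (adjusted p = 0.0379), with values of 9.51 to 9.85 in CD and 9.42 to 9.55 in FA that overlapped. The call was lost with 75th percentile scaling (adjusted p = 0.055), normexp (0.14), 2 groups only (0.0791) and the Tukey test (0.0976), without CD replicate 2, 3 or 4 (adjusted p = 0.0966, 0.0619 and 0.0873) and without FA replicate 1, 3 or 4 (0.0961, 0.0708 and 0.0666), and the GC-centred difference was 0 (adjusted p = 0.996). In PR it did not pass (adjusted p = 0.14, or 0.0182 without CD replicate 1). Hist2h2aa1, read at its stem-loop, measured 13.19 to 13.21 in CD, 13.11 to 13.24 in PR and 12.93 to 13.17 in FA. Its differences of -0.04 ± 0.06 and -0.11 ± 0.06 did not pass (adjusted p = 0.625 and 0.164), although with 75th percentile scaling the one in FA was -0.17 (adjusted p = 0.0402). Hist3h2a, a replication-dependent H2A gene outside the large clusters, measured 12.48 to 12.7 in CD, 12.5 to 12.55 in PR and 12.38 to 12.66 in FA, with overlapping groups (adjusted p = 0.431 and 0.58), although with normexp the difference in FA was -0.19 (adjusted p = 0.048).

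Hist1h2aa, known for its expression in testis, was read on all 12 arrays. It measured 7.72, 7.83, 9.68 and 8.83 in CD, 7.59, 7.56, 7.68 and 7.68 in PR, and 7.57, 7.99, 8.03 and 7.92 in FA. CD replicates 3 and 4 stood above all other arrays. The difference was -0.89 ± 0.36 in PR (adjusted p = 0.0905) and -0.63 ± 0.36 in FA (adjusted p = 0.206). Without CD replicate 1 or CD replicate 2 the one in PR passed, at -1.15 and -1.11 (adjusted p = 0.0351 and 0.0487). Hist1h2ba, a testis H2B gene that lies beside it, measured 11.45 to 11.71 in CD, 11.39 to 11.55 in PR and 11.27 to 11.55 in FA, and did not pass either (adjusted p = 0.549 and 0.111), although the difference in FA was -0.23 without FA replicate 3 (adjusted p = 0.0317) and -0.22 when centred by GC content (adjusted p = 0.0246). Hist1h1t, the linker histone of the testis, measured 3.61, 4.62, 2.3 and 4.57 in CD, 6.52, 4.06, 3.64 and 3.61 in PR, and 3.72, 3.36, 3.5 and 3.4 in FA. It was well above background on 3 PR arrays and no other, the groups overlapped, and it did not pass (adjusted p = 0.479 and 0.781). The CD values of 4.57 and 4.62 were not flagged, although they exceeded the PR values of 3.61 to 4.06.

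H2B showed differences in both directions, in 2 genes outside the Hist1 cluster. Hist3h2ba measured 12.5, 12.47, 12.49 and 12.58 in CD, 11.96, 12.07, 12.04 and 12.03 in PR, and 11.73, 12.03, 12.03 and 11.72 in FA. Each CD array lay above every other array, and FA fell into a pair near 12.03 and a pair near 11.73. The gene was lower in PR by 0.48 ± 0.08 (adjusted p = 0.00117), or 1.4 times, and in FA by 0.63 ± 0.08 (adjusted p = 0.000211), or 1.55 times. The probe is 35% G and C, and the GC-centred differences were -0.46 and -0.62. Hist2h2be, read at chr3:96026893-96026952 on the plus strand and far downstream in its transcript, went the other way. It measured 7.95, 7.75, 7.85 and 7.82 in CD, 8.4, 8.06, 8.14 and 8.4 in PR, and 8.32, 8.39, 8.53 and 8.2 in FA. All 8 arrays of restricted diets lay above all CD arrays, and the differences were 0.41 ± 0.1 (adjusted p = 0.00974) and 0.51 ± 0.1 (adjusted p = 0.00227), or 1.32 and 1.43 times.

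Other H2B probes gave calls in FA. Hist1h2bc was lower in FA by 0.29 ± 0.07 (adjusted p = 0.00722), with 13.39 to 13.59 in CD and 13.07 to 13.33 in FA, and had 13.25 to 13.37 in PR (adjusted p = 0.0667), which passed with 75th percentile scaling (0.0161), normexp (0.0306), trend and robust variance (0.0463) and without FA replicate 3 (0.0412). Hist1h2bg was not well above background on any CD array and was so on all PR and FA arrays. The flag did not follow the normalized value here. PR arrays at 4.31 and 4.48 carried it, and CD arrays at 4.51, 4.53 and 4.75 did not. Its PR values of 4.48, 4.31, 4.69 and 4.67 overlapped with CD (adjusted p = 0.58). Its FA values of 4.95, 4.99, 5.05 and 5.04 were above the CD values of 4.53, 3.78, 4.51 and 4.75 (adjusted p = 0.0213, or 0.0786 with the Tukey test), and no fold is given since the CD arrays were near their floor. Hist1h2bp, also called higher in FA (adjusted p = 0.0358), was not well above background on any array. Hist2h2bb, a stem-loop probe, measured 7.86, 8.37, 7.53 and 7.18 in CD, 7 to 7.51 in PR and 7.17 to 7.84 in FA, and did not pass (adjusted p = 0.181 and 0.343). Hist1h2bm, whose probe is listed with 4 RefSeq transcripts, had group means of 11.75, 11.73 and 11.76, the closest agreement among H2B probes.

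None of the 8 H3 probes was lower in either comparison, where 16.6% of all probes were lower in PR and 18% in FA. With so few probes, this does not set H3 apart. Hist1h3d, whose probe is listed with 4 RefSeq transcripts, measured 13.37, 13.4, 13.38 and 13.44 in CD, 13.49, 13.54, 13.41 and 13.5 in PR, and 13.72, 13.75, 13.69 and 13.68 in FA. The FA arrays stood apart from both other groups, while CD and PR overlapped at their edges. FA was above CD by 0.31 ± 0.04 (adjusted p = 0.000239), or 1.24 times, and PR was above CD by 0.09 ± 0.04 (adjusted p = 0.115). The probe lies at chr13:23667979-23668038 on the plus strand, within the coding sequence.
Hist1h3d: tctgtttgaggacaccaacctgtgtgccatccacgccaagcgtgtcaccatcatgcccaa
Hist2h3c1, the probe with the highest GC content of the members at 70%, measured 9.14 to 9.34 in CD, 9.1 to 9.34 in PR and 9.08 to 9.28 in FA. Its differences of 0.02 ± 0.07 and -0.02 ± 0.07 did not pass (adjusted p = 0.865 and 0.891), although the GC-centred one in PR was 0.25 (adjusted p = 0.0407). Hist2h3c2 measured 10.57 to 10.7, 10.57 to 10.85 and 10.53 to 10.77 in the 3 groups. Hist1h3a was called higher in PR (adjusted p = 0.00356), from values of 2.42 to 2.53 in CD where no array was well above background to 3.78, 2.94, 4.44 and 3.98 in PR where 2 were. No fold is given for it.

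**Figure D4:**
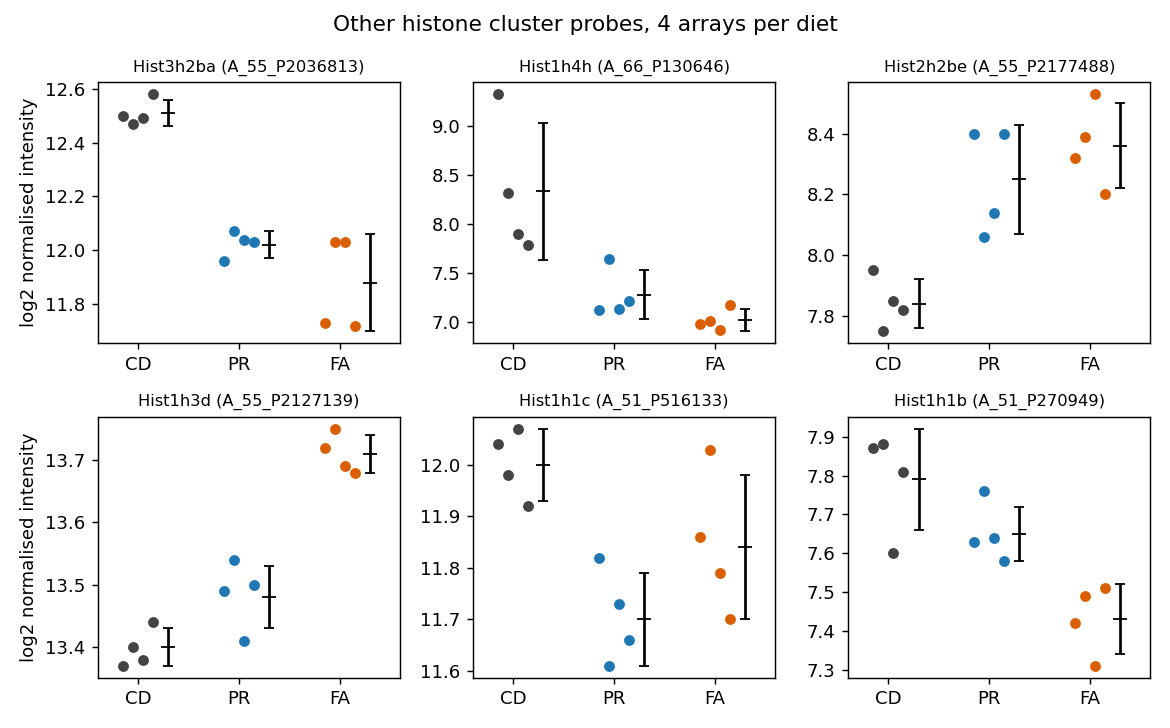
Log2 normalised intensity of Hist3h2ba, Hist1h4h, Hist2h2be, Hist1h3d, Hist1h1c and Hist1h1b on each of the 4 arrays of CD, PR and FA; points are arrays and black bars the mean and SD of a group. Hist2h2be is higher on all 8 PR and FA arrays than on any CD array, and the FA values of Hist1h3d, from 13.68 to 13.75, lie above all its CD and PR values.

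H4, the most conserved core histone, had the largest difference among members well above background on each of the 12 arrays, in Hist1h4h. It measured 9.32, 8.31, 7.9 and 7.79 in CD, 7.12, 7.64, 7.13 and 7.22 in PR, and 6.98, 7.01, 6.92 and 7.18 in FA. The CD arrays were the most scattered, yet each lay above all PR and FA arrays. The difference was -1.06 ± 0.29 in PR (adjusted p = 0.0188), or 2.08 times, and -1.31 ± 0.29 in FA (adjusted p = 0.00551), or 2.48 times. Without CD replicate 1 it was -0.72 in PR and -0.98 in FA, and the PR call was lost with 2 groups only (adjusted p = 0.0546), with the Tukey test (0.0738) and without CD replicate 2 and FA replicate 2 (0.0544). This probe lies at chr13:23622937-23622996 on the plus strand and reads the start of the coding sequence, as does a Hist2h4 probe (A_55_P1974967) that 2 of the 4 CD arrays detected and that measured 4.78 to 5.7 in CD, 4.27 to 4.68 in PR and 4.8 to 5.95 in FA (adjusted p = 0.101 and 0.67). Both are shown as 30 bases with the start codon in capitals, since their neighbouring bases differ.
Hist1h4h: tcttcagcaagtacaccATGtctggtcgtg
Hist2h4 (A_55_P1974967): tacattagctATGtctggcagaggaaaggg

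The next H4 calls were in PR. Hist1h4c measured 8.55, 9.05, 8.47 and 8.45 in CD against 8.14, 8.02, 8.28 and 8.02 in PR, a difference of -0.51 ± 0.15 (adjusted p = 0.0243). Hist2h4 (A_55_P1973349) measured 13.56, 14.09, 13.47 and 13.57 in CD against 13.31, 13.22, 13.23 and 13.12 in PR, a difference of -0.45 ± 0.14 (adjusted p = 0.0331). Hist1h4j measured 9.29, 9.79, 9.26 and 9.25 in CD against 8.97, 8.99, 9.02 and 8.91 in PR, a difference of -0.43 ± 0.13 (adjusted p = 0.0284). CD and PR did not overlap for any of the 3. They were named because they were called, and the share of all probes without overlap is not given here. Hist1h4c lost the call without PR replicate 2 or 4 (adjusted p = 0.0565 and 0.0633), Hist1h4j without PR replicate 1, 2 or 4 (0.0567, 0.0514 and 0.0698), and Hist2h4 without CD replicate 2 or PR replicate 2, 3 or 4 (0.0528, 0.0614, 0.0635 and 0.0822). The 2 Hist2h4 probes disagreed in sign in FA, at 0.16 and -0.38. In FA the differences of Hist1h4c, Hist2h4 and Hist1h4j were -0.31, -0.38 and -0.34 and did not pass (adjusted p = 0.133, 0.0582 and 0.0624), but each passed without FA replicate 2 (0.0442, 0.0202 and 0.0252). Hist1h4j passed with the replicate block (0.0316), and Hist2h4 with 75th percentile scaling (0.0298), normexp (0.0441), dim probes removed (0.0475), the replicate block (0.0277), trend and robust variance (0.0454) and without CD replicate 3 (0.0466). Whether PR and FA differ is answered by FA minus PR, which was 0.2, 0.07 and 0.09 for the 3 probes (adjusted p = 0.598, 0.872 and 0.817). Hist4h4, the only gene of its cluster, measured 11.77 to 12.25 in CD, 11.69 to 11.84 in PR and 11.55 to 12.02 in FA (adjusted p = 0.294 and 0.224). All 11 H4 probes had a difference below 0 in PR, from -0.1 to -1.06, and 10 of 11 in FA. The probes of Hist1h4c, Hist1h4d, Hist1h4j and Hist1h4k (A_55_P2091147) each share a run of 17 to 26 bases with another of them. They are listed with 3, 3, 2 and 2 RefSeq transcripts in that order, and the other Hist1h4k probe (A_55_P2091145) with 4. The 11 values are therefore not 11 independent genes.

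Most H4 probes were high on the same 2 arrays, a pattern noticed after the values were seen. Of the 10 H4 probes well above background on all arrays, 8 were highest in their group on CD replicate 2 and 8 on FA replicate 2, where 25.2% and 29.7% of all 23753 such probes of the array were highest. The mean deviation of the 10 probes from their group mean was 0.32 on CD replicate 2 and 0.24 on FA replicate 2, against -0.15 to 0.04 on the other 10 arrays. Hist1h4h and the downstream Hist1h4i probe (A_55_P2174198) did not share it. Several of the 8 probes share bases with one another, so they are not 8 independent genes. Outside the histone clusters, 464 of 23716 bright probes (1.96%) had a correlation of at least 0.8 with the mean of the H4 probes over the 12 deviations, which share libraries. Of 25 DNA replication and proliferation probes well above background on each of the 12 arrays, 3 were highest in their group on CD replicate 2 and 8 on FA replicate 2, and their part in the H4 values was not tested. By the methods' Tukey test, 0 H4 probes were lower in PR and 1 in FA, so that all 4 calls in PR were lost (adjusted p = 0.0738 for Hist1h4h, 0.0873 for Hist1h4c, 0.112 for Hist2h4 and 0.0973 for Hist1h4j). Without both arrays, 3 H4 probes were lower in PR and 4 in FA, against 4 and 1 with them. Without PR replicate 2, 1 H4 probe was lower in PR, and without PR replicate 4, 2 were. Without FA replicate 2 alone, 4 were lower in FA. After centring by GC content, 2 were lower in PR, and Hist2h4 and Hist1h4j lost the call (adjusted p = 0.0665 and 0.0764).

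**Figure D5:**
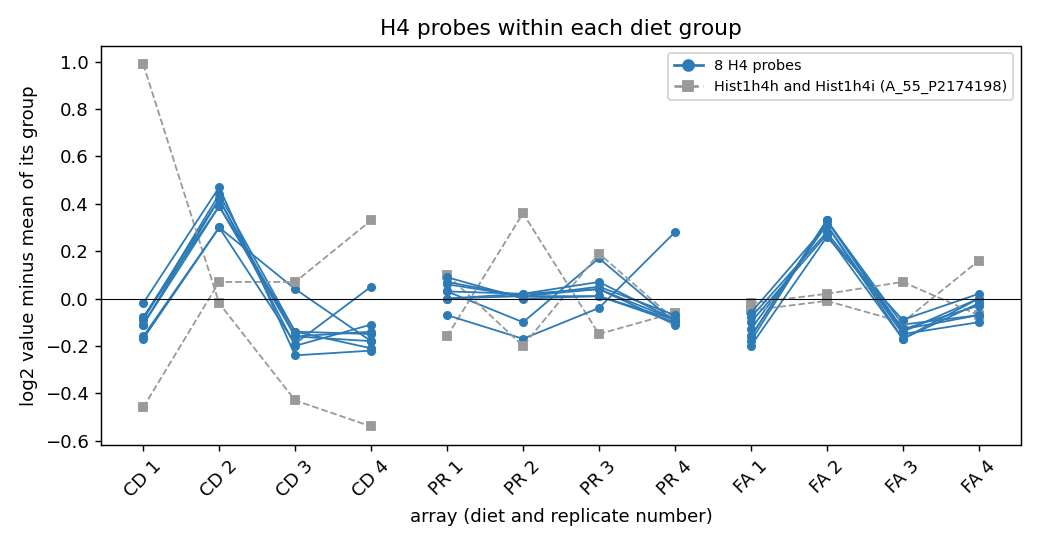
Deviation of each of the 10 H4 probes well above background on all 12 arrays from the mean of its diet group, by array; lines join the 4 arrays of a group and have no order. The 8 blue probes peak on CD 2 and FA 2, at 0.26 to 0.47, and the 2 grey probes do not.

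Of 6 linker histone H1 probes, 2 were lower in PR and 2 in FA, beside 16.6% and 18% of all probes. The median differences of the 6 were -0.19 and -0.24. Hist1h1d, 1 of the lower probes in each comparison, was well above background on no array. Hist1h1c, which encodes a linker histone common in non-dividing cells, measured 12.04, 11.98, 12.07 and 11.92 in CD, 11.82, 11.61, 11.73 and 11.66 in PR, and 11.86, 12.03, 11.79 and 11.7 in FA. Only PR was clear of CD, by -0.3 ± 0.07 (adjusted p = 0.0118), while FA was -0.16 ± 0.07 (adjusted p = 0.123, or 0.03 without FA replicate 2 and 0.0492 without CD replicate 2 as well) and FA minus PR was 0.14 ± 0.07 (adjusted p = 0.429). Hist1h1b measured 7.87, 7.88, 7.6 and 7.81 in CD, 7.63, 7.76, 7.64 and 7.58 in PR, and 7.42, 7.49, 7.31 and 7.51 in FA. It was lower in FA by 0.36 ± 0.07 (adjusted p = 0.00337), with no overlap, and PR missed the threshold (adjusted p = 0.172, or 0.0498 with normexp and 0.0401 without CD replicate 3). Hist1h1e measured 9.46 to 9.93, 9.24 to 9.44 and 9.31 to 9.89 in the 3 groups and did not pass (adjusted p = 0.0949 and 0.501), although PR passed with the replicate block or without FA replicate 2 (0.0338 and 0.0423). Hist1h1a, at 5.5 to 6.02 in CD, 5.14 to 6.14 in PR and 5.22 to 5.5 in FA, did not pass either (adjusted p = 0.515 and 0.172). Hist1h1d was called lower in both comparisons (adjusted p = 0.00487 and 0.00607) at values of 2.36 to 2.74 that were well above background on no array, and the calls were lost with the normexp background correction (adjusted p = 0.64 and 0.537) and with trend and robust variance (0.052 and 0.0631). No fold is given for it.

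By cluster, 10 of the 37 Hist1 probes on chromosome 13 were lower in PR and 10 in FA, and 1 and 3 were higher. Of the 10 Hist2 probes on chromosome 3, 3 were lower in PR and 2 in FA, and Hist2h2be was higher in both. Of the 3 Hist3 probes on chromosome 11, Hist3h2ba was lower in both. Over all probes, 16.6% were lower and 13.4% higher in PR, and 18% and 16.4% in FA. The lower calls of Hist1 and Hist2 include the H2A probes printed above, which can bind mRNA of one another's genes. Those of Hist1 also include Hist1h1d, which was well above background on no array. The median differences of Hist1, Hist2 and Hist3 probes were -0.22, -0.28 and -0.15 in PR and -0.19, -0.18 and -0.17 in FA, so that no cluster stood apart by its median.

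The comparison of FA with PR asks whether folic acid altered what the restricted diet did. Of the 51 probes, 1 was higher and 0 were lower in FA than in PR, where 0.228% and 0.386% of all probes were called, and the median difference was 0.02. The 1 probe was Hist1h3d, at 0.22 ± 0.04 (adjusted p = 0.0438). Its difference stayed between 0.2 and 0.24 under all alternatives, but the call was lost when any array other than CD replicate 4 was left out (adjusted p 0.0573 to 0.105). By the Tukey test 0 were called in either direction. At limma's unadjusted p under 0.05, 5 of the 51 members were higher and 2 lower in FA than in PR, where 8.03% and 6.1% of all probes were.

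The promoters of these genes hold the sequence elements for which they are known. In the promoter table from RefSeq (build GRCm38.p6), 42 promoters of 41 of the 47 genes were found, and the 250 bases before each start were searched on both strands. CCAAT was present in 83.3% of the 42, against 33.8% of 32851 promoters, and in all 14 H2A, 9 H2B and 6 H1 promoters but 2 of 7 H4 promoters. TATAAA was present in 50%, against 12.4%. The octamer ATTTGCAT of H2B genes was present in 6 of 9 H2B and 7 of 14 H2A promoters and in no H1, H3 or H4 promoter, against 1.6% of all promoters. The H1 box AAACACA was present in 5 of 6 H1 promoters, against 6.25%. Hist1h2an and Hist3h2ba, the H2A and H2B genes with the largest called fall in PR, are shown with CCAAT and TATAAA on either strand in capitals, the first at chr13:21787249-21787498 on the minus strand and the second at chr11:58948661-58948910 on the plus strand, both of GRCm38.p6.
Hist1h2an: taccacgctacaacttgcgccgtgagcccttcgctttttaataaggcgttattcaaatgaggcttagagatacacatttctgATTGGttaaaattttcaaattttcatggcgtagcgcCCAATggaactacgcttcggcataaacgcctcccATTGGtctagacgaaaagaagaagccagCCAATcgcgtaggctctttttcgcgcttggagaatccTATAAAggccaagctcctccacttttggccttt
Hist3h2ba: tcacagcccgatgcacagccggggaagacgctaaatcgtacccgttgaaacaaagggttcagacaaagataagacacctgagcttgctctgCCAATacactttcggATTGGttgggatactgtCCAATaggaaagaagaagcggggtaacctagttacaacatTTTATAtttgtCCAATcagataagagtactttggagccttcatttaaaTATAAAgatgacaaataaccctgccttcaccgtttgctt
Neither holds the octamer in this window, which says nothing of the factor that binds it.

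Genes that make, process or carry histones were read beside the clusters. Beside the counts that follow, 13.4% of all probes were higher and 16.6% lower in PR than in CD, and 16.4% were higher and 18% lower in FA. Of 21 probes for histone mRNA transcription and processing, 9 were higher and 2 lower in PR, and 9 were higher and 1 lower in FA, with median differences of 0.12 and 0.14. Both probes of Slbp, whose protein binds the histone stem-loop, were higher. The first (A_55_P2071799) measured 8.33, 7.99, 8.25 and 8.3 in CD, 8.71, 8.77, 8.79 and 8.88 in PR, and 8.96, 8.74, 9.02 and 8.86 in FA. No CD array reached the others, and the differences were 0.57 ± 0.08 (adjusted p = 0.000706) and 0.68 ± 0.08 (adjusted p = 0.000227). The second (A_55_P2071802) gave 0.56 ± 0.08 and 0.6 ± 0.08. Upf1, a helicase that acts in the decay of histone mRNA, was lower by 0.36 ± 0.06 in PR (adjusted p = 0.00105) and by 0.44 ± 0.06 in FA (adjusted p = 0.000286). Ncbp1, of the cap-binding complex, and Cpsf3, the nuclease that cuts the mRNA end, were higher in PR by 0.21 ± 0.04 and 0.16 ± 0.04 and in FA by 0.38 ± 0.04 and 0.33 ± 0.04.

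Among 20 probes for 12 histone genes outside the clusters, 2 were higher and 1 lower in PR, and 5 were higher and 2 lower in FA. H3f3b, which encodes the replacement histone H3.3, was higher in FA with all 3 of its probes, by 0.37 ± 0.05, 0.4 ± 0.07 and 0.2 ± 0.05 (adjusted p = 0.000388, 0.00124 and 0.00738). The probes of H3f3a, which also encodes H3.3, had differences of 0.07 ± 0.05 and 0 ± 0.09 in FA and did not pass. H1f0, a linker histone of resting cells, was higher in FA by 0.47 ± 0.1 (adjusted p = 0.00547). Among 43 probes for histone chaperones, 7 were higher and 5 lower in PR, and 16 were higher and 7 lower in FA. Asf1a, which carries H3 and H4, was higher by 0.76 ± 0.12 in PR (adjusted p = 0.00134) and 0.38 ± 0.12 in FA (adjusted p = 0.0352). Hira, which deposits H3.3, was higher by 0.45 ± 0.07 (adjusted p = 0.00126) and 0.35 ± 0.07 (adjusted p = 0.00428). Others fell. Ubn2 (A_51_P239036) had differences of -0.52 ± 0.06 in PR (adjusted p = 0.000252) and -0.77 ± 0.06 in FA (adjusted p = 7.23e-05), and Supt16h -0.28 ± 0.06 and -0.25 ± 0.06. A second Ubn2 probe (A_55_P2172227) did not pass in PR, at -0.15 ± 0.06 (adjusted p = 0.0725). In FA that probe was lower by 0.26 ± 0.06 (adjusted p = 0.00542). The Atrx probe A_51_P413366 had -1.25 ± 0.19 and -1.2 ± 0.19, but the other Atrx probes did not pass.

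These lists are to be read against the same shares of all probes, 13.4% higher and 16.6% lower in PR and 16.4% and 18% in FA. DNA replication genes, with which cluster genes are usually transcribed, were called in both directions. Of 39 probes, 7 were higher and 8 lower in PR, with a median of -0.02. In FA 6 were higher and 4 lower, with a median of 0.09. Of the 39, 9 were well above background on no array. These include the 4 lower in FA (Birc5 A_55_P1983769, Bub1, Ccne2 and Cdc6 A_66_P131979), which were also lower in PR. The 6 higher in FA were well above background on every FA array. Of 11 probes for genes of neural progenitors and new neurons, 1 was well above background on no array. In PR 7 of the 11 were lower and 1 higher, and in FA 8 were lower and 0 higher, with medians of -0.31 and -0.42. The summed intensity of the 11 was 8044 to 8352 in CD, 6800 to 8061 in PR and 6430 to 6770 in FA. Both probes of Eomes, a factor of intermediate progenitors, were lower in PR, by 0.66 ± 0.18 (adjusted p = 0.0187) and 0.69 ± 0.15 (adjusted p = 0.00632). The part of these cells in the histone values was not tested. Granulocyte genes, whose progenitors divide, had summed intensities of 1449 to 1494 in CD, 1013 to 7080 in PR and 972 to 4979 in FA, and none of 8 probes passed. Their part in the histone values was not tested. Microglia lists gave 2 probes higher and 2 lower in each comparison, choroid plexus 1 higher in PR, and erythroid genes none.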

How the data were processed

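The authors hybridized Cy3-labelled RNA of 12 brains to Agilent 4x44K arrays and quantified them with Feature Extraction 11.0.1.1, with probes annotated to mm9. The deposited scanner files hold the background-subtracted intensity of each spot, and a deposited table holds linear probe intensities that the authors normalized by qspline. The table was put on the log2 scale. Each column tracked its array's scanner values (lowest r = 0.997), the column medians were 141 to 141.7, and an independent qspline run differed from the table by a median of 0.000976 and at most 0.151 on the log2 scale. The number of arrays limits the precision. The methylation samples were not analysed here.

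A single limma model (version 3.58.1, R 4.3.3) held all 3 diets, and p-values were adjusted by Benjamini-Hochberg over 39429 probes, with calls at an adjusted p under 0.05. It was tested on simulated data. Probes of a gene were kept apart, the scanner's flag defined well above background, and no probe was saturated. The members, gene lists and motifs were chosen with earlier results of these data known. By rule, values were given for called probes that were detected on every array of a compared group (the 6 largest where over 12 qualified in 1 direction), all H1 probes, Hist2 to Hist4 probes detected on every array, and the testis genes Hist1h1t, Hist1h2aa and Hist1h2ba. Other probes named were chosen after their values were seen. The labels give separate mice, and p-values measure the spread between them. No fold is given where a group lay below background throughout and its bound was under 1. The alternatives were another scaling (75th percentile), quantile normalization, qspline without outlier spots (77 values missing), normexp with an offset of 50, removal of dim probes, the replicate block, trend and robust variance, 2 groups only, the methods' Tukey test, the methods' limits of 2-fold and 0.0001, and leaving out each array in turn. Centring by GC content and leaving out CD replicate 2 with FA replicate 2 were chosen after seeing the data.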

Additional observations from a re-analysis of the deposited data

Results flagged for a closer look

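Of 93 groups of 4 arrays over the 31 probes named by rule, 7 held an array whose gap to the nearest other array exceeded Dixon's critical share of the group's range for 4 values. By chance about 1 in 20 groups would. In 5 of the 7 the array was CD replicate 2. There Hist1h4c measured 9.05 (others 8.45 to 8.55), Hist2h4 (A_55_P1973349) 14.09 (others 13.47 to 13.57), Hist1h4j 9.79 (others 9.25 to 9.29), Hist1h2af 14.51 (others 14.46) and Hist2h3c1 9.34 (others 9.14 to 9.17). Hist1h2ah was low on FA replicate 4, at 14.23 against 14.34 on the others. Hist1h1t was high on PR replicate 1, at 6.52 against 3.61 to 4.06, in a group where 3 arrays were well above background.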

How the results depend on the processing

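Under the limits of 2-fold and an adjusted p of 0.0001, 0 histone probes were called in any direction of any comparison. PR higher than CD, 2 probes, became 1 with normexp and 1 with dim probes removed, and 3 with 75th percentile scaling or GC centring. PR lower than CD, 14, became 9 with the Tukey test, 10 with GC centring and 12 without CD replicate 2 and FA replicate 2. It became 13 with 2 groups only or dim probes removed, and 15 with 75th percentile scaling or normexp. FA lower than CD, 13, became 11 with the Tukey test or GC centring. It became 14 with 75th percentile scaling, normexp or trend and robust variance, and 16 without CD replicate 2 and FA replicate 2. FA higher than CD, 4, became 2 with the Tukey test. FA higher than PR, 1, became 0 with 75th percentile scaling, the replicate block, 2 groups only, the Tukey test, GC centring, and without CD replicate 2 and FA replicate 2. Leaving out each array gave 2 to 3 probes higher and 11 to 15 lower in PR than CD, 3 to 4 higher and 11 to 17 lower in FA than CD, and 0 to 1 higher and 0 to 1 lower in FA than PR. The replicate numbers did not pair the mice: same-number correlations of deviations ran from -0.063 to 0.196, and 1 of 4 arrays in PR against CD, 1 in FA against CD and 3 in FA against PR correlated best with its own number. With the replicate block, 3 probes were higher and 16 lower in PR, 3 higher and 16 lower in FA, and 0 differed between FA and PR. Leaving out CD replicate 2 and FA replicate 2 and GC centring were chosen after seeing the data. Over all alternatives, 2096 of 2226 log2 differences of named probes kept their direction and side of the threshold, 99 lost a call, 31 gained one and none that was called reversed. The 2226 include differences not called in the main fit, so the 99 losses are a larger share of the calls themselves. Slide and diet cannot be told apart, and probes of near-identical genes share signal. Precision is limited by 4 arrays a group.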
